A study of Mus musculus with 12 samples.

Results

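Emerin-null myogenic progenitors at day 0 of differentiation were compared with wildtype progenitors at day 0, gene by gene. A gene entered where the day 0 table tested it (status OK) and gave an FPKM of at least 1 in at least 1 genotype. FPKM is the number of sequenced fragments per kilobase of transcript, scaled to all fragments mapped in the sample. The entry of highest summed FPKM stood for each gene. Of 15099 genes in the day 0 table, 12623 met this rule, and 4447 of them lay at loci that name several genes, where all names carry the same value. The results below are for the 8176 genes alone at their locus. For a gene with an ordinary name, predicted, microRNA and other small RNA names at its locus did not count as other genes. Differences are log2 of emerin-null FPKM plus 0.1 over wildtype FPKM plus 0.1, so a negative value is lower in emerin-null progenitors.

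The series holds 12 samples, taken from emerin-null and wildtype H2K mouse cells at 6 stages, the first in proliferation and the others on days 0 to 4 of differentiation. Cells of both genotypes at day 0 were in growth medium with interferon-γ at 20 units per ml. They had been plated at the density used for differentiation and had not yet been switched to low-serum medium. Each sample was RNA from 3 culture plates, but the table gives 1 pooled value per genotype, so no spread between plates can be set beside a day 0 difference and no day 0 difference was tested against replicates. Each genotype is a separate line, and the sources used here do not say how many clones or animals each line stands for. Genotype and line therefore cannot be told apart.

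Emerin is a LEM-domain protein of the inner nuclear membrane that binds lamins and chromatin regulators, and its loss in people causes Emery-Dreifuss muscular dystrophy. H2K cells are myoblasts immortalized conditionally by an antigen that interferon-γ induces, so removing interferon and serum lets them leave the cell cycle, commit and fuse. In that program Myod1 and Myf5 mark the determined myoblast, Myog the committed cell, and sarcomere and calcium-handling genes the differentiating cell.

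Emd, the gene of emerin (chromosome X, 74254687 to 74261548, GRCm38), had an FPKM of 0.0859 in emerin-null progenitors, against 62.1 in wildtype progenitors. Its log2 difference of -8.39 was among the lowest of all genes, and over the 6 stages it was nearest 0 at day 2, at -2.10. Among 20 measured genes of the nuclear envelope and lamina, no other member was 2-fold lower and none was 2-fold higher. Of all measured genes, 4.34% were 2-fold lower and 3.06% higher, so few calls would be looked for in a list of that size. The lamin genes differed by less than 2-fold, with Lmna at 369 in emerin-null and 378 in wildtype progenitors, and Lmnb1 at 57.1 in emerin-null and 49.2 in wildtype progenitors. Both lines carried the markers of myoblasts. Myod1, the determination factor, had an FPKM of 145.5 in emerin-null and 146 in wildtype progenitors, and Des, the muscle intermediate filament desmin, 355 in emerin-null and 378 in wildtype progenitors. For most other cell types, few markers passed the FPKM minimum. An FPKM of 1 in either genotype was reached by 1 of 10 endothelial, 1 of 12 macrophage, 2 of 10 neural and glial, 2 of 9 adipocyte, 2 of 12 fibroblast and 2 of 12 tendon, cartilage and bone markers, counting genes alone at their locus. Smooth muscle and pericyte markers, which myoblasts share in part, reached it in 7 of 12. The summed FPKM of the fibroblast markers with a value was 3.24 in emerin-null and 4.66 in wildtype progenitors, and that of the macrophage markers 1.60 in emerin-null and 2.19 in wildtype progenitors.

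Most genes had nearly the same level in both genotypes. The median log2 difference was -0.03, and the middle 50% of genes lay between -0.20 and 0.12. In emerin-null progenitors 250 genes were at least 2-fold higher, which is 3.06% of those measured, and 355 were at least 2-fold lower, which is 4.34%. The count in proliferating cells was 293 higher and 275 lower. The 2-fold genes were mostly genes of low level. Of 2324 genes with a mean FPKM under 5, 6.84% were 2-fold higher and 9.25% 2-fold lower, against 1.19% and 2.44% of 3280 genes between 5 and 20. The shares were larger again at the top, with 4.95% higher and 7.88% lower of 444 genes at 100 or more, although 1.80% of those 444 had a supported call as defined next. Some genes were represented by a very short assembled piece, or by 1 of several entries that do not go the same way. A call was therefore named supported where the locus was at least 300 bases long, no FPKM exceeded 10000 and every entry with an FPKM of 1 or more passed 2-fold in the same direction. This criterion was chosen after the values were seen. It was met by 188 of the higher genes (2.3% of those measured) and 262 of the lower ones (3.2%).

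**Figure D1:**
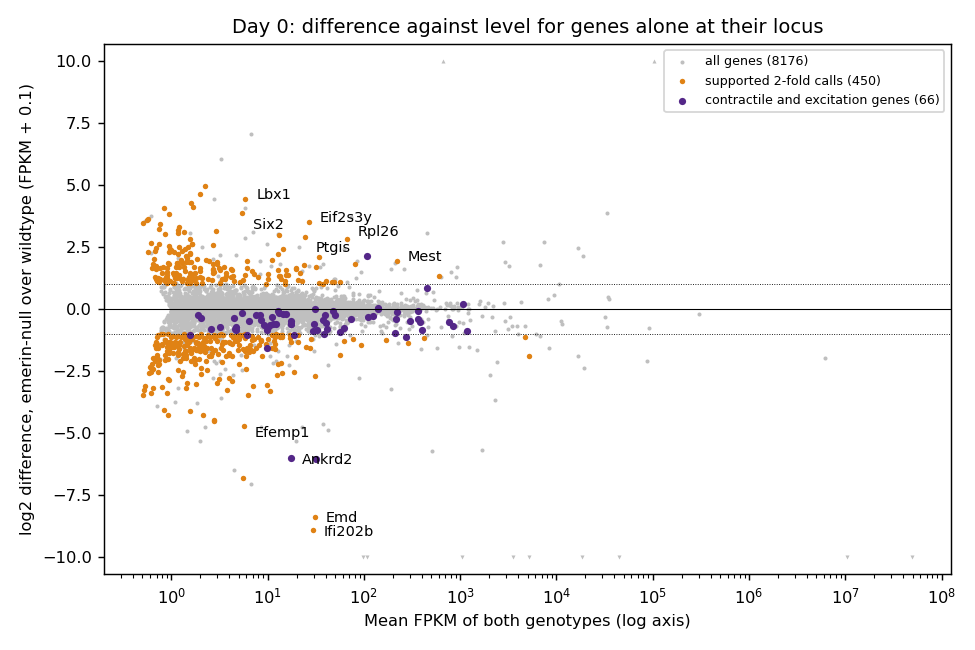
Each point is 1 gene, with its mean FPKM over both genotypes on a log axis and its log2 difference, emerin-null over wildtype, on the vertical axis. Triangles at the edges mark genes beyond 10 in either direction, most of them listed at 0 in 1 genotype. The dotted lines mark 2-fold. Emd and Ifi202b lie lowest among the supported calls, and the 66 contractile and excitation genes lie mostly below 0.

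Of the 15 lowest genes with an FPKM of at least 5, only 4 were supported, 11 were listed at 0 in emerin-null progenitors and 7 rested on loci shorter than 300 bases. Of the 15 highest, 4 were supported. Kif11, the mitotic kinesin, illustrates this, since its entry of highest FPKM was at 1311 in emerin-null progenitors and listed at 0 in wildtype progenitors, while another of its entries was at 34.0 in emerin-null and 26.9 in wildtype progenitors. Eya4, a transcriptional cofactor of muscle development, was listed at 0 in emerin-null and at 197 in wildtype progenitors in 1 entry, but at 24.7 in emerin-null and 26.9 in wildtype progenitors in another. Other unsupported extremes included Wdr69, Osbp2, Pcsk6, Kif3b, Usp13, Dpp10, Grm8, H60c, Hydin and Myh4 on the low side and Aff2, Mnda, Adcy2, Mmp1b, Dlg4, Cacnb2, Spata13, Creb5 and Btbd9 on the high side.

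The supported genes among the 15 highest and the 15 lowest each had a single entry with an FPKM of 1 or more. Ifi202b, an interferon-inducible gene of the Ifi200 family, was at 0.0207 in emerin-null and 58.9 in wildtype progenitors. H2-Ea-ps, the class II E alpha pseudogene, was listed at 0 in emerin-null progenitors and at 11.2 in wildtype progenitors. Ankrd2, an ankyrin-repeat protein that muscle induces on stretch, was at 0.427 in emerin-null and 34.1 in wildtype progenitors. On the high side, Lbx1, the homeobox factor of migrating limb muscle precursors, was at 11.3 in emerin-null and 0.427 in wildtype progenitors. Six2, a homeobox factor, was at 10.3 in emerin-null and 0.608 in wildtype progenitors. Eif2s3y, a Y-linked translation initiation subunit, was at 49.2 in emerin-null and 4.16 in wildtype progenitors, and Rgs4, a brake on G protein signaling, at 5.24 in emerin-null and 0.502 in wildtype progenitors. Further supported genes, named after their values were seen, included Efemp1 (0.321 in emerin-null, 10.98 in wildtype progenitors), a fibulin, and Fcgr4 on the low side, and Gpnmb (23.1 in emerin-null, 2.84 in wildtype progenitors), a membrane glycoprotein, and Ptgis on the high side.

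Genes of the contractile apparatus were lower in emerin-null progenitors at day 0, by less than 2-fold in most cases. Of 66 measured genes in 4 lists (sarcomeric myosins, thin filament, Z-disc and titin partners, excitation and calcium handling), 61 had a log2 difference below 0, whereas 55% of all genes did. Their median was -0.52, beside -0.03 for all genes. At least 2-fold, 7 were lower and 1 higher, where 4.34% of all genes were lower and 3.06% higher. At least 1.5-fold, 31 were lower and 2 higher, where 8.5% of all genes were lower and 5.66% higher by that much. The 25 measured Z-disc genes were all below 0.

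The starts of 4 lower muscle genes are shown because sarcomere and metabolic muscle genes are classic targets of Myod1 and Myog, which bind E-boxes (CANNTG). Each sequence is the 250 bases before the annotated start, 5′ to 3′, from RefSeq (GRCm38.p6), with every CANNTG in capitals. The motif reads the same on both strands. The windows are chr19:42035777-42036026 for Ankrd2, chr11:67078050-67078299 for Myh3, chr1:136052561-136052810 for Cacna1s and chr7:19410844-19411093 for Ckm, all on the plus strand.
Ankrd2: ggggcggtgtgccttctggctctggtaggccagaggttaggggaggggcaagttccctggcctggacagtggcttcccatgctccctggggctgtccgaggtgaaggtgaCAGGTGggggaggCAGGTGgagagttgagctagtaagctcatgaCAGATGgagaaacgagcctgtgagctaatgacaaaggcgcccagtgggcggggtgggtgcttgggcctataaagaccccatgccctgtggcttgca
Myh3: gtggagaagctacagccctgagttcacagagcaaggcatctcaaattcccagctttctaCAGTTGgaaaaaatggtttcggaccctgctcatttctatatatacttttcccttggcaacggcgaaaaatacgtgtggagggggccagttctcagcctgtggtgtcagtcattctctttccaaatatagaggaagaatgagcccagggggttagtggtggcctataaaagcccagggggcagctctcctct
Cacna1s: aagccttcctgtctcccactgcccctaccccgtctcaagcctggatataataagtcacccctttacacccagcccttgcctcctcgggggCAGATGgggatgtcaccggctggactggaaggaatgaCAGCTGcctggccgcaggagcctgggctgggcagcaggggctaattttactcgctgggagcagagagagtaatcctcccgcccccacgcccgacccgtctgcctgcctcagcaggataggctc
Ckm: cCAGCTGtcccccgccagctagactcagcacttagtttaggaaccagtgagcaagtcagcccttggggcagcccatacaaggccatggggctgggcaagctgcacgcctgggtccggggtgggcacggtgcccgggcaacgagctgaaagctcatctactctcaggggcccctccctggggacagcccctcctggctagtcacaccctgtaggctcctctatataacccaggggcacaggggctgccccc
Ankrd2 had 3 such hexamers in its window, Cacna1s 2, and Myh3 and Ckm 1 each. The form CAGCTG occurred in the windows of Cacna1s and Ckm. These letters are common, since 66.0% of 27025 promoters of the same length in the table held a CANNTG and 12.8% a CAGCTG. A share over the contractile lists is not given, because the table held a promoter for only 46 of the 66 genes. A match is a description of the sequence, and no binding was measured here.

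Among the myosins and their partners, Myh3, the embryonic heavy chain, was at 175 in emerin-null and 378 in wildtype progenitors. Mybpc1, the slow myosin-binding protein C, was at 4.81 in emerin-null and 14.6 in wildtype progenitors, a log2 difference of -1.59. The abundant light chains Mylpf (641 in emerin-null, 1042 in wildtype progenitors) and Myl4 (286 in emerin-null, 509 in wildtype progenitors) were lower by less than 2-fold. Myl1, the fast alkali light chain, was the 1 member counted as higher, at 173 in emerin-null and 39.3 in wildtype progenitors, but its other abundant entry was at 31.3 in emerin-null and 58.2 in wildtype progenitors, so its direction depends on the entry. Myh4 was counted as lower from a piece of 161 bases. Its other entries were lower too, to different extents, and members of the myosin heavy chain cluster are close copies whose reads can be shared.

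Of the thin filament genes, Acta1, skeletal α-actin, had an FPKM of 821 in emerin-null and 1514 in wildtype progenitors, and Tnnc2, fast troponin C, 143 in emerin-null and 278.5 in wildtype progenitors. None of the 12 measured genes of that list passed 2-fold, where 4.34% of all genes were lower and 3.06% higher. Actc1, the cardiac α-actin of early myoblasts, was at 143 in emerin-null and 138 in wildtype progenitors, and Tpm1, a tropomyosin also made outside muscle, at 1138 in emerin-null and 982 in wildtype progenitors. The list thus had members on both sides of 0, and actins are close copies as well.

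At the Z-disc, 3 of 25 genes were 2-fold lower and none was higher, beside 4.34% and 3.06% of all genes. They were Ankrd2, Hspb7, a small heat shock protein of muscle (3.93 in emerin-null, 8.34 in wildtype progenitors), and Nebl, the nebulin relative nebulette (0.983 in emerin-null, 2.17 in wildtype progenitors). Ldb3, the Z-disc scaffold ZASP, was at 20.7 in emerin-null and 38.0 in wildtype progenitors, and Actn2, sarcomeric α-actinin, at 46.0 in emerin-null and 78.5 in wildtype progenitors. Ttn, titin, was at 9.04 in emerin-null and 13.9 in wildtype progenitors. Nearest to 0 was Trim55, a muscle RING finger protein, at 46.8 in emerin-null and 49.0 in wildtype progenitors, and Ankrd1 was at 186 in emerin-null and 243 in wildtype progenitors. Ankrd1 and Ankrd2, which belong to the same stretch-responsive family, thus differed from each other, with log2 differences of -0.38 and -6.02.

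Of the excitation genes, Cacna1s, the voltage sensor of the muscle calcium channel, was at 12.2 in emerin-null and 24.9 in wildtype progenitors and passed 2-fold. Cav3, the caveolin of the muscle membrane, was at 25.8 in emerin-null and 51.7 in wildtype progenitors, just under 2-fold. Casq2, a calcium store protein of the sarcoplasmic reticulum, was at 29.8 in emerin-null and 52.4 in wildtype progenitors, and Ryr1, the calcium release channel, at 9.72 in emerin-null and 14.9 in wildtype progenitors. Bin1, which shapes T-tubules, was nearly level at 215 in emerin-null and 230.0 in wildtype progenitors. Cacna2d1, an auxiliary channel subunit, was the member above 0, at 580.3 in emerin-null and 323 in wildtype progenitors, from 3 entries of which the other two were below 0. The median of the 19 genes was -0.48.

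**Figure D2:**
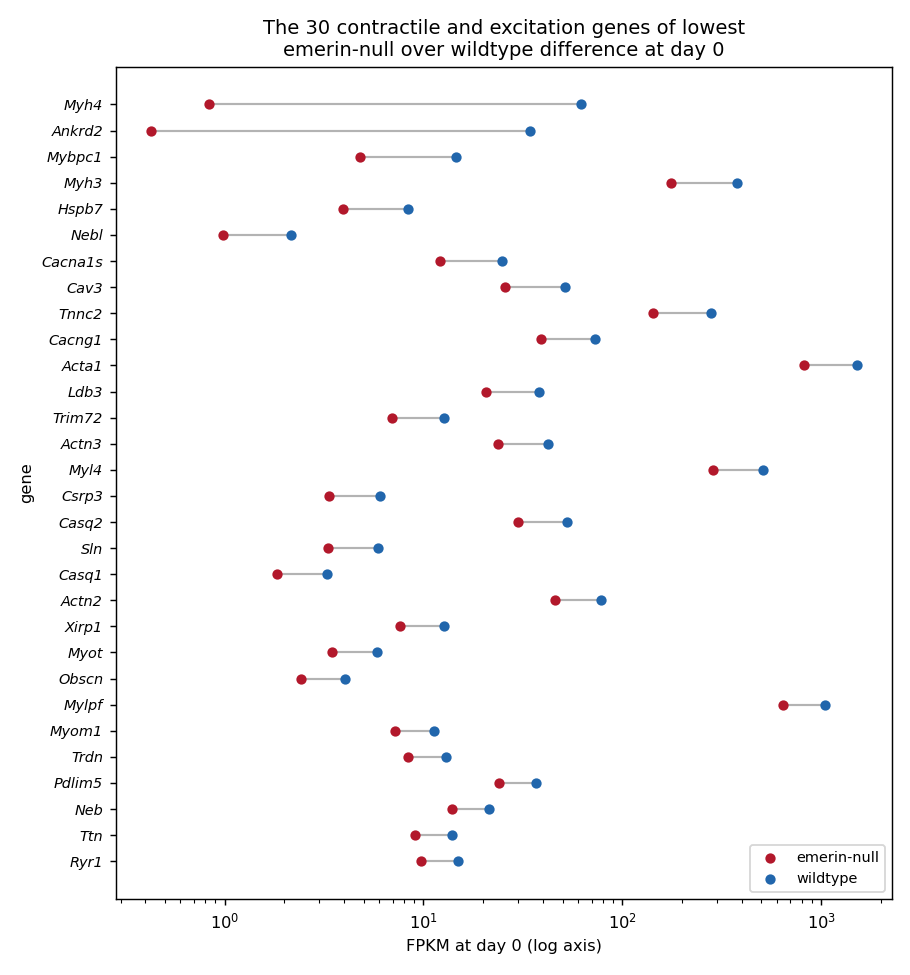
FPKM at day 0 on a log axis for the 30 contractile and excitation genes of lowest log2 difference, emerin-null in red and wildtype in blue, 1 pooled value each. The red point lies left of the blue one for all 30 by selection, with Acta1 at 821 in emerin-null and 1514 in wildtype progenitors and Ankrd2 at 0.427 in emerin-null and 34.1 in wildtype progenitors.

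Metabolic and fusion genes of muscle followed with smaller differences. For the counts past 2-fold here, the shares of all genes were 3.06% higher and 4.34% lower. All 14 measured genes of muscle energy metabolism were below 0, with a median of -0.25, and 2 of them were 2-fold lower. Ckm, muscle creatine kinase, was at 13.5 in emerin-null and 28.1 in wildtype progenitors, and Cox6a2, the muscle form of a cytochrome oxidase subunit, at 8.72 in emerin-null and 18.1 in wildtype progenitors. Pkm and Tpi1, glycolytic enzymes of all cells, were at -0.12 and -0.17. Among 21 fusion genes the median was -0.21, and Elmo1 alone passed 2-fold, on the higher side and without support. Tmem8c, the fusogen myomaker, was at 172 in emerin-null and 257.5 in wildtype progenitors, and Cdh15, M-cadherin, at 74.9 in emerin-null and 73.0 in wildtype progenitors. Of 11 genes of the neuromuscular junction, Nrg1 (0.984 in emerin-null, 3.91 in wildtype progenitors), a neuregulin, and Colq (without support) were 2-fold lower, and Chrna1, the acetylcholine receptor α-subunit, was at 281 in emerin-null and 261 in wildtype progenitors.

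The regulators of the program lay on both sides of 0. Of 32 measured myogenic transcription factors, 16 were above and 16 below 0, and the median was 0.04. At least 2-fold, 5 were higher and 1 lower, beside 3.06% and 4.34% of all genes. Myog was at 185.5 in emerin-null and 198 in wildtype progenitors, and Myf5 at 8.26 in emerin-null and 5.07 in wildtype progenitors. Mef2c, a MEF2 factor of differentiating muscle, was at 21.7 in emerin-null and 28.8 in wildtype progenitors, and Myf6, the late factor MRF4, at 1.86 in emerin-null and 3.22 in wildtype progenitors. The members that were 2-fold higher and supported were Lbx1, Six2, Tbx1, a T-box factor of head and pharyngeal muscle (24.1 in emerin-null, 4.46 in wildtype progenitors), and Pax7, the satellite cell factor (4.81 in emerin-null, 1.54 in wildtype progenitors). Tcf12 and Eya4 also passed 2-fold, without support. Among 17 homeobox and patterning factors, Meis2 (21.3 in emerin-null, 4.44 in wildtype progenitors) was higher, and Lhx2 and Hoxc12 were lower.

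**Figure D3:**
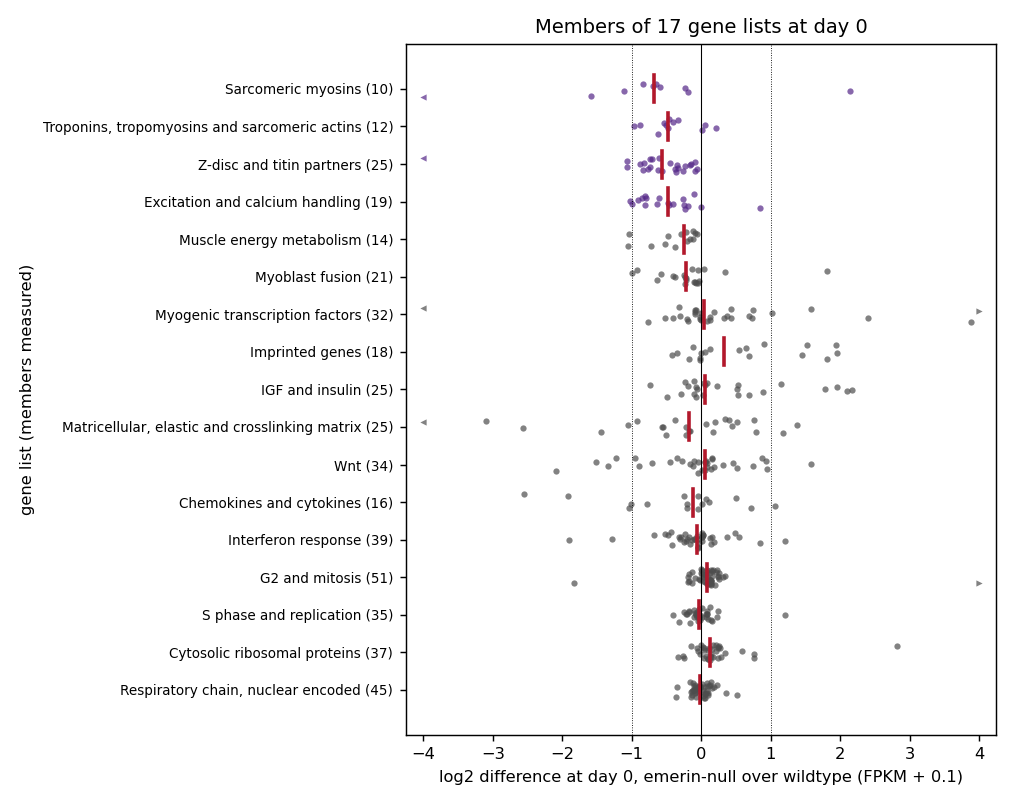
Log2 difference at day 0 of the measured members of 17 gene lists (points), with the median of each list as a red bar and the number of members in parentheses. Triangles mark members beyond 4. The 4 contractile and excitation lists, in purple at the top, have medians between -0.67 and -0.47. The medians of the replication, mitosis and respiratory chain lists lie between -0.03 and 0.09. Beyond 2-fold lie 1 higher replication member and 1 higher and 1 lower mitosis member.

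The contractile genes had their lowest median at day 0 among the 6 stages. Over the 43 of the 66 genes that had a value at every stage, the median difference on day 0 was -0.56, beside -0.08 during proliferation. On day 1 it was -0.10, and from day 2 to day 4 it lay between -0.02 and 0.02. Of the 4 lists, the myosins, with 6 such genes, had a slightly lower median on day 2, at -0.44, than on day 0, at -0.41. Over all 6285 genes with a value at every stage the medians lay between -0.05 and 0.07. Day 0 was the stage of the lowest difference for 32 of the 43 genes, and for 21.1% of all genes. Actn2 shows the course, with an FPKM of 85.7 in emerin-null and 92.2 in wildtype progenitors while proliferating, 46.0 in emerin-null and 78.5 in wildtype progenitors at day 0, and 222 in emerin-null and 194 in wildtype progenitors at day 1. Ldb3 was at 29.4 in emerin-null and 31.6 in wildtype progenitors while proliferating, and at 79.9 in emerin-null and 87.0 in wildtype progenitors at day 1. In both genes the emerin-null value was lower at day 0 than in proliferating cells. The tables of the stages were normalized separately, so this last comparison is a description. Ankrd2 was different, since its log2 difference stayed between -6.02 at day 0 and -3.76 at day 2 over the 6 stages. The abundant genes Acta1, Myh3 and Mylpf had no usable value at several later stages and are not among the 43.

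**Figure D4:**
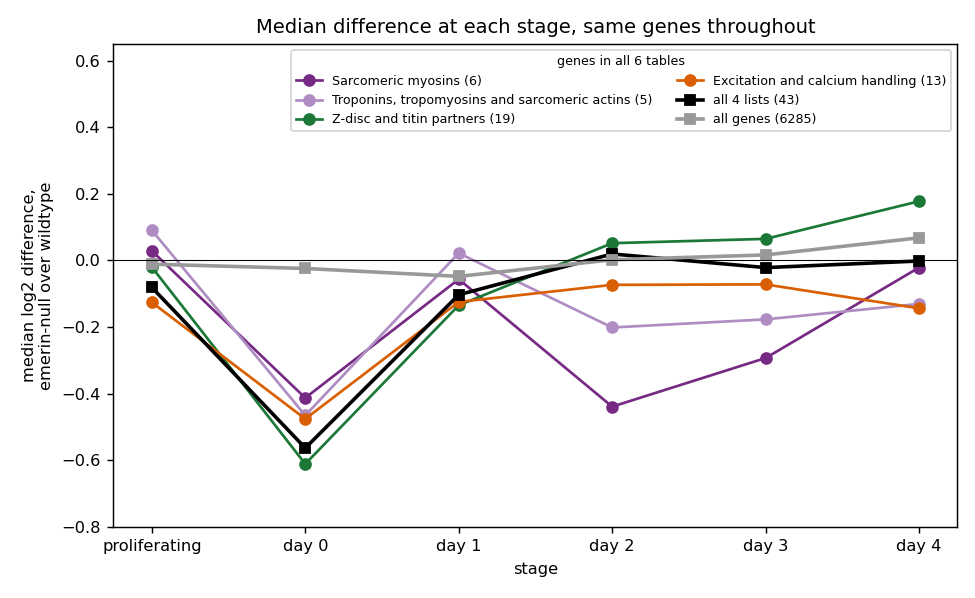
Median log2 difference, emerin-null over wildtype, of each contractile and excitation list at each stage, over the genes with a value in all 6 tables (numbers in the legend). The black line of all 4 lists is at -0.56 at day 0 and between -0.10 and 0.02 at the other stages, and the grey line of all genes stays between -0.05 and 0.07.

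Whether the day 0 difference of a gene stood apart from its differences at the other 5 stages was tested with limma, with the spread between stages as the error. This spread holds biology as well as noise and is not a replicate error. Of 6285 genes, 5 were higher at day 0 than at the other stages at an adjusted p below 0.05 (0.0796%) and 11 lower (0.175%). At an unadjusted p below 0.05 there were 94 higher (1.5%) and 275 lower (4.38%). Among the 43 contractile and excitation genes, 22 were lower and 2 higher at an unadjusted p below 0.05, and the only one past the adjusted threshold was Cacna2d1, on the higher side. Myom1, an M-band protein, differed by -0.63 ± 0.10 (SE) from its mean at the other stages, with a limma adjusted p of 0.163. Ldb3 differed by -0.89 ± 0.14, with a limma adjusted p of 0.167. Actn2 differed by -0.90 ± 0.15, with a limma adjusted p of 0.188, and Hspb7 by -1.15 ± 0.24, with a limma adjusted p of 0.277. No single contractile gene passed the adjusted threshold on the lower side. Cacna2d1, on the higher side, did not pass without the trend or with any 1 of the other stages left out. With 1 of the other stages left out, between 2 and 8 genes were higher and between 4 and 12 lower. For 5 of the 16 genes that passed with all stages, the entry of highest FPKM in its lower genotype was the same entry. That choice therefore does not test them. They were Zcchc7, Tlk2, Larp6, Etnk1 and Cacna2d1. Cacna2d1 did not pass in that setting, although its difference of 0.99 was unchanged. Of the other 11, of which Lekr1 then had no value, none passed with that entry. Ptprm, also among them, kept a similar difference of -4.33, beside -4.51, at a limma adjusted p of 0.146. Larp6, a protein that binds collagen mRNA, was at 5.77 in emerin-null and 27.7 in wildtype progenitors at day 0, without support. Its other day 0 entry had a log2 difference of -0.60. While proliferating it was at 7.19 in emerin-null and 6.07 in wildtype progenitors, but the entry standing for a gene was chosen anew at each stage.

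Some imprinted growth genes and parts of the insulin-like growth factor system were higher in emerin-null progenitors. Of 18 measured imprinted genes, 5 were 2-fold higher, all supported, and none was lower, beside 3.06% and 4.34% of all genes. They were Mest (347 in emerin-null, 90.5 in wildtype progenitors), a paternally expressed hydrolase-like gene, Cdkn1c, the cell cycle inhibitor p57 (127 in emerin-null, 36.2 in wildtype progenitors), Plagl1, a zinc finger factor (31.6 in emerin-null, 11.5 in wildtype progenitors), Dlk1, a Delta-like membrane protein (10.2 in emerin-null, 3.49 in wildtype progenitors), and Grb10, an adaptor of insulin receptors (3.98 in emerin-null, 0.954 in wildtype progenitors). Igf2, the imprinted growth factor, was at 644.5 in emerin-null and 402 in wildtype progenitors. Gnas was level at 1241 in emerin-null and 1239 in wildtype progenitors, and Meg3 was at 3.69 in emerin-null and 4.97 in wildtype progenitors, so the list did not go one way as a whole. Its median of 0.33 became 0.05 with joined loci included and 0.65 at an FPKM of at least 5. The higher state of Cdkn1c was seen at every stage, with 239 in emerin-null and 52.5 in wildtype progenitors while proliferating.

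Of 25 genes of the IGF and insulin list, 5 were 2-fold higher and none lower, beside the same 3.06% and 4.34%. The binding proteins that hold IGF outside the cell stood out, with Igfbp2 at 55.4 in emerin-null and 12.9 in wildtype progenitors, Igfbp3 at 36.8 in emerin-null and 10.6 in wildtype progenitors, and Igfbp4 at 56.0 in emerin-null and 25.2 in wildtype progenitors. The receptor Igf1r was level at 209 in emerin-null and 205 in wildtype progenitors. Igfbp6 was at 6.74 in emerin-null and 9.53 in wildtype progenitors, so not all binding proteins were higher. Igf2bp3, an mRNA-binding protein, was also counted as higher, without support, and Grb10 belongs to both lists.

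Counts of matrix genes past 2-fold stand beside 3.06% of all genes higher and 4.34% lower. Among 25 matricellular, elastic and crosslinking genes, 2 were higher and 5 lower. Thbs2, a thrombospondin, was at 1.38 in emerin-null and 12.6 in wildtype progenitors, and Fbln2, a fibulin, at 7.16 in emerin-null and 14.96 in wildtype progenitors. Tnc, tenascin C, was at 28.9 in emerin-null and 12.7 in wildtype progenitors, and Loxl1, a crosslinking oxidase, at 23.6 in emerin-null and 8.995 in wildtype progenitors. Of 11 fibrillar and type VI collagens, Col1a1 was at 4.97 in emerin-null and 22.7 in wildtype progenitors. Its partner chain Col1a2 was at 334 in emerin-null and 485 in wildtype progenitors, a much smaller difference of -0.54. Col6a3 was at 5.08 in emerin-null and 2.08 in wildtype progenitors. Col1a1 had the opposite sign at day 4, with 16.4 in emerin-null and 19.04 in wildtype progenitors while proliferating and 51.4 in emerin-null and 7.61 in wildtype progenitors at day 4. Among 26 proteases and inhibitors 3 were lower, including the aggrecanases Adamts1 (2.66 in emerin-null, 8.43 in wildtype progenitors) and Adamts5 (1.74 in emerin-null, 8.39 in wildtype progenitors), and among 29 integrin and adhesion genes 2 were lower, F11r, a junctional adhesion molecule (0.959 in emerin-null, 11.6 in wildtype progenitors), and Lims2. Of 10 basement membrane genes, Col4a6 passed 2-fold on the higher side and Nid2 on the lower side, both without support.

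Of 34 Wnt genes, 4 were lower and 1 higher, beside 4.34% and 3.06% of all genes, and their median was 0.05. The lower ones were the ligand Wnt4, the Wnt enhancer Rspo3 (1.15 in emerin-null, 3.09 in wildtype progenitors), Sfrp2, a Wnt binder (4.28 in emerin-null, 10.1 in wildtype progenitors), and Dkk3 (0.803 in emerin-null, 3.74 in wildtype progenitors). The 1 higher gene was the nuclear effector Lef1, at 6.44 in emerin-null and 2.09 in wildtype progenitors, and β-catenin (Ctnnb1) was level at 251 in emerin-null and 237 in wildtype progenitors. Bmp4, a bone morphogenetic protein, was at 0.0815 in emerin-null and 3.03 in wildtype progenitors. Of 33 genes of the FGF, PDGF, VEGF and HGF list, 4 were lower and none higher, beside 4.34% and 3.06% of all genes. They were the growth factors Fgf7 (3.98 in emerin-null, 9.70 in wildtype progenitors), Kitl (2.29 in emerin-null, 6.24 in wildtype progenitors), Ptn (8.32 in emerin-null, 18.4 in wildtype progenitors) and Pdgfb. The receptor Fgfr1 was at 28.2 in emerin-null and 30.1 in wildtype progenitors. Of 16 chemokines and cytokines, 4 were lower, among them Cxcl14 (5.39 in emerin-null, 32.1 in wildtype progenitors) and Cxcl9 (2.45 in emerin-null, 9.50 in wildtype progenitors), and Lif was higher. Of 22 Notch genes, Dlk1 and the target Hey1 (14.7 in emerin-null, 5.49 in wildtype progenitors) were higher, and Notch4 was lower without support.

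Of 29 cyclic nucleotide and prostanoid genes, 6 were higher and 4 lower, beside 3.06% and 4.34% of all genes. Of the 6, Adcy2 and Pde10a were without support. Ptgis, prostacyclin synthase, was at 43.0 in emerin-null and 5.69 in wildtype progenitors, and Hpgd, which breaks prostaglandins down, at 0.878 in emerin-null and 3.07 in wildtype progenitors. Rgs4 and Rgs5 (1.42 in emerin-null, 0.0611 in wildtype progenitors) were higher and their relative Rgs2 (1.01 in emerin-null, 2.21 in wildtype progenitors) was lower. The phosphodiesterase Pde4b was at 6.40 in emerin-null and 17.3 in wildtype progenitors, and Pde1c at 1.21 in emerin-null and 0.316 in wildtype progenitors. In axon guidance 4 of 45 genes were lower and 2 higher. The netrin receptors diverged, with Unc5c at 0.928 in emerin-null and 7.55 in wildtype progenitors, Unc5a at 1.49 in emerin-null and 0.0473 in wildtype progenitors, and Unc5b level at 55.9 in emerin-null and 54.7 in wildtype progenitors. Of 11 genes of the neuronal cytoskeleton 4 were lower, of which Stmn2, a stathmin that frees tubulin, was at 8.17 in emerin-null and 53.1 in wildtype progenitors. Nes, the intermediate filament nestin of progenitors, was at 244.5 in emerin-null and 393 in wildtype progenitors.

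Both lines received interferon-γ. Counts past 2-fold in this paragraph stand beside 3.06% of all genes higher and 4.34% lower. Among 39 measured interferon response genes 1 was higher and 2 lower, and the median was -0.06. Ifi44 was at 2175 in emerin-null and 8134 in wildtype progenitors, and Irf5 at 4.75 in emerin-null and 2.00 in wildtype progenitors. No gene of 28 in the JAK-STAT and SOCS list passed 2-fold. In the Ifi200 family on chromosome 1, all 3 measured genes passed 2-fold. Mnda, on the higher side, was at 13.3 in emerin-null progenitors and listed at 0 in wildtype progenitors. The other two were lower. Besides Ifi202b, Ifi204 was at 36.4 in emerin-null and 346 in wildtype progenitors in 1 entry, but at 54.8 in emerin-null and 33.7 in wildtype progenitors in another. The members of this family are close copies, and the counting could divide their reads. Of 10 genes of antigen presentation, 1 was higher and none lower. Cd74 was at 95.2 in emerin-null and 119 in wildtype progenitors, and H2-Eb1, the higher one, at 67.4 in emerin-null and 31.2 in wildtype progenitors.

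The cell cycle was nearly level at day 0. The shares of all genes past 2-fold, beside the counts below, were 3.06% higher and 4.34% lower. Of 35 S phase genes none was 2-fold lower and Pola1 was higher without support, with a median of -0.03. Of 51 genes of G2 and mitosis, 39 were above 0, with a median of 0.09. At least 2-fold, 1 was higher, Kif11 without support, and 1 was lower. Cdk1 was at 153.5 in emerin-null and 154 in wildtype progenitors. Pttg1, securin, was the supported exception at 24.4 in emerin-null and 87.3 in wildtype progenitors. The same groups of genes had medians of 0.98 and 2.13 at day 4, over 29 and 42 genes. Among 32 inhibitors of the cell cycle and p53 targets Cdkn1c alone passed 2-fold, and Cdkn2a was at 337 in emerin-null and 449 in wildtype progenitors. No gene passed 2-fold among 45 of the respiratory chain, 25 of cholesterol and fatty acid synthesis, 29 of the amino acid response and heat shock, 29 G1 cyclins and immediate early genes, 24 of chromatin repression and 8 housekeeping genes. Of 37 ribosomal protein genes 30 were above 0, with a median of 0.13, and Rpl26 was higher, at 117 in emerin-null and 16.5 in wildtype progenitors. Ribosomal protein genes have many processed copies that can share reads.

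Among the remaining lists, Gsta4 (5.75 in emerin-null, 17.8 in wildtype progenitors), Cyp1b1 (3.81 in emerin-null, 11.4 in wildtype progenitors) and Sod3 were the 3 lower of 29 genes of glutathione and redox. Gpnmb and Ctsh, a cathepsin, were the 2 higher of 32 of lysosome and autophagy. Beside all counts of this paragraph stand the 3.06% of all genes that were 2-fold higher and the 4.34% that were 2-fold lower. Wwc1 was the 1 higher of 30 of the Hippo pathway, and the YAP target Ctgf was at 13.5 in emerin-null and 22.8 in wildtype progenitors. Of 10 genes in the list of abundant noncoding RNA, 3 were lower. They were the ribosomal RNA precursor Rn45s (256 in emerin-null, 577 in wildtype progenitors), Rmrp and Lars2 (50.3 in emerin-null, 138 in wildtype progenitors). Lars2 is a protein-coding gene whose locus holds a sequence like ribosomal RNA. The part of residual ribosomal RNA in the other differences was not tested. Of the markers of other cell types, the adipocyte genes Lpl (12.7 in emerin-null, 36.8 in wildtype progenitors) and Cebpa were lower, and the summed FPKM of the adipocyte markers was 25.04 in emerin-null and 60.9 in wildtype progenitors. Of the fibroblast markers, Mfap5 (0.0990 in emerin-null, 1.08 in wildtype progenitors) was lower. Of 7 measured smooth muscle and pericyte markers, 4 were below 0, and the median was -0.09. The pericyte genes Rgs5 and Cspg4 (2.37 in emerin-null, 0.451 in wildtype progenitors) were higher. Lmod1 (1.56 in emerin-null, 4.84 in wildtype progenitors) was 2-fold lower, without support. Acta2, smooth muscle actin, was at 794 in emerin-null and 1142 in wildtype progenitors. The part of these markers in the matrix and signaling differences was not tested. Of 9 core histone genes Hist3h2ba was higher, at 2.09 in emerin-null and 0.500 in wildtype progenitors.

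Many of the day 0 differences were present before and after it. Of the 188 supported higher genes, 149 were measured in proliferating cells, where 144 were higher and 116 at least 2-fold. Of the 262 supported lower genes, 214 were measured there, and 207 were lower and 117 at least 2-fold. At day 4, 75 of 118 measured genes of the higher set were still 2-fold higher, but only 47 of 166 of the lower set were 2-fold lower. Over the genes measured at all 6 stages, 43 of 89 of the higher set and 20 of 127 of the lower set passed 2-fold in the same direction at every stage. Conversely, 7 of those 89 and 36 of those 127 passed 2-fold at day 0 only. Because these genes were chosen at day 0, their values there are larger by selection. Lbx1 was at 10.97 in emerin-null and 0.303 in wildtype progenitors while proliferating and at 13.7 in emerin-null and 0.312 in wildtype progenitors at day 4. Stmn2 and Cxcl14 were lower at day 0 but not at day 4, with Stmn2 at 0.774 in emerin-null and 0.631 in wildtype progenitors at day 4.

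**Figure D5:**
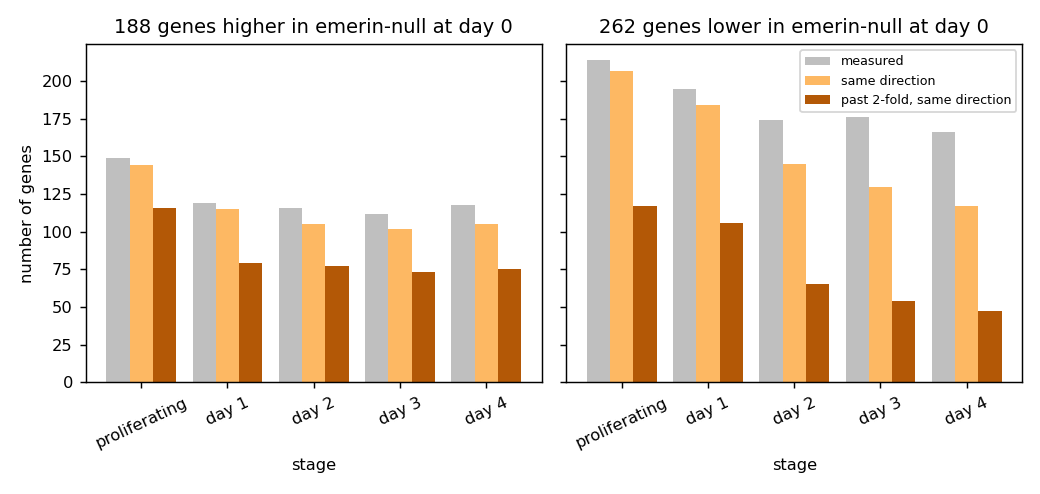
Number of the supported day 0 genes, higher on the left and lower on the right, that were measured at each other stage (grey), had the same direction there (light orange) and were at least 2-fold in that direction (dark orange). The dark bars of the lower set shrink to 47 at day 4, while those of the higher set stay between 73 and 79 at days 1 to 4.

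By chromosome, the median log2 difference of the 19 autosomes and X lay between -0.06 and 0.02, and between 4.65% (chromosome 13) and 9.67% (chromosome 1) of their genes passed 2-fold. Over 7691 windows of 25 neighboring genes the medians lay between -0.31 and 0.20. The lowest window was on chromosome 7 from 99262805 to 101787694 (mm10). Over its 16 genes with a value at every stage, the median on day 0 was -0.40, beside -0.16 during proliferation and -0.44 on day 1. Within 2 Mb of Emd, 23 other genes were measured, with a median of 0.09. None was 2-fold lower and 3 were 2-fold higher, beside 4.34% and 3.06% of all genes. The higher ones were Xlr3b (2.16 in emerin-null, 0.147 in wildtype progenitors), Dusp9, a phosphatase of MAP kinases (6.21 in emerin-null, 2.41 in wildtype progenitors), and 4933407K13Rik. The nearest of these 23 measured genes, Rpl10, was at 23.2 in emerin-null and 24.2 in wildtype progenitors. The next of them, Dnase1l1, was at 6.62 in emerin-null and 9.80 in wildtype progenitors, the lowest log2 difference of the 23 at -0.56. Genes at joined loci or below the FPKM minimum are not among them.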

How the data were processed

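RNA of emerin-null and wildtype H2K progenitors was sequenced on an Illumina HiScan-SQ. According to the methods and the submitters' processing notes, the authors checked reads with FastQC, mapped them to mm10 with TopHat and ran Cuffdiff on the genotypes of each stage. The sources used here state no tool versions. Each table deposited by the authors holds 1 FPKM value per genotype and entry, read as FPKM from the Cuffdiff layout, and columns of the authors' own comparison (log2 fold, test statistic, p, q and call), which were not used. No counts are given, so the depth is unknown. Of 29670 day 0 entries, 23171 had status OK. Names turned into dates (21) were dropped. Members and 53 gene lists were chosen with earlier results of these data known.

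Differences were log2 of FPKM plus 0.1, emerin-null over wildtype, counted at 2-fold with no test. In limma 3.58.1 (R 4.3.3) the 6 stage differences were fitted with a day 0 term, moderated with a trend and adjusted by Benjamini-Hochberg. Both steps were tested on simulated data. Named genes were Emd, the 15 highest and 15 lowest (FPKM of at least 5, alone, with ordinary names), up to 4 of the 2-fold members and the 2 most abundant members of each list, and up to 8 genes per direction of the limma test. A few genes that this rule picks are not reported here. Other genes named were chosen after their values were seen, as were the supported calls. Alternatives were another pseudocount, FPKM minimum, scaling, entry, threshold or set of stages.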

Additional observations from a re-analysis of the deposited data

Results flagged for a closer look

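Each gene below has a day 0 difference that stands apart from its differences at the other 5 stages in the limma test, given as day 0 minus the mean of the others on the log2 scale. On the higher side these were Kif11 (12.98), Adcy2 (6.02), Zcchc7 (1.87), Tlk2 (1.48) and Cacna2d1 (0.99). On the lower side, the 8 of smallest adjusted p were Eya4 (-10.91), Sema6b (-5.39), Rassf3 (-5.36), Me3 (-4.05), Lekr1 (-2.88), Etnk1 (-2.53), Larp6 (-2.39) and Auh (-1.84). Most rest on 1 of several entries, and the entry was chosen anew at each stage. With the entry of highest FPKM in its lower genotype, the difference was -0.36 for Kif11, 0.09 for Adcy2 and -0.09 for Eya4. It was -0.11 for Sema6b, -0.55 for Rassf3, -0.77 for Me3 and -0.01 for Auh, and Lekr1 had no value. Zcchc7, Tlk2, Cacna2d1, Etnk1 and Larp6 kept the same entry. Tlk2 was at 1180.5 in emerin-null and 416 in wildtype progenitors in a piece of 86 bases, and at 23.4 in emerin-null and 23.1 in wildtype progenitors in a full-length entry. Zcchc7 was at 59.2 in emerin-null and 16.6 in wildtype progenitors in 1 of 12 entries, and at 9.78 in emerin-null and 9.89 in wildtype progenitors in the next. Etnk1 was at 562 in emerin-null and 3508 in wildtype progenitors in 1 of 9 entries, and at 28.7 in emerin-null and 25.5 in wildtype progenitors in the next.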

How the results depend on the processing

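With 1 pooled value per genotype and no counts, neither replicate error nor depth can be given for a day 0 difference. The higher and lower counts of 250 and 355 were 160 and 224 with a pseudocount of 1, 106 and 174 at an FPKM of at least 5, and 463 and 695 at 1.5-fold. With no FPKM minimum the higher count was 405. Other settings left both counts within 1.5 times, and the share of higher genes stayed between 37.9% and 44.3%, beside 41.3%. The contractile median stayed between -0.52 and -0.47. With the entry of highest FPKM in its lower genotype, a setting chosen after the data were seen, 5 named genes turned round, Btbd9 to -0.23, Cacnb2 to -0.63, Pcsk6 to 1.12, Sema6b to 0.36 and Usp13 to 0.10. In the limma test this entry gave 3 higher and 2 lower genes, and a pseudocount of 1 gave 9 higher. Higher and lower genes numbered 8 and 12 with the proliferating stage left out, and 2 and 5 with day 1, 4 and 5 with day 2, 2 and 4 with day 3, and 4 and 6 with day 4 left out. No paired analysis was possible because each group holds 1 sample and the tables give no values of single plates.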

Other observations

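Eif2s3y was higher in emerin-null progenitors at all 6 stages, from 37.5 in emerin-null and 3.85 in wildtype progenitors at day 4 to 54.9 in emerin-null and 3.83 in wildtype progenitors while proliferating. The other Y-linked genes measured at day 0 were level, with Ddx3y at 26.4 in emerin-null and 26.0 in wildtype progenitors, Uty at 5.42 in emerin-null and 5.55 in wildtype progenitors, and Kdm5d at 4.51 in emerin-null and 4.82 in wildtype progenitors.

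The ribosomal protein gene Rpl26 was likewise higher wherever it was measured, at 28.6 in emerin-null and 4.85 in wildtype progenitors while proliferating and at 127 in emerin-null and 4.92 in wildtype progenitors at day 4.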
